A study of Mus musculus with 4 samples.

Results

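Aminoacyl-tRNA synthetases are the enzymes that join each amino acid to its tRNA, the charged form in which amino acids reach the ribosome. Cells keep separate sets for the cytosol and for mitochondria, and several of the cytosolic enzymes sit together in a large multi-synthetase complex held by scaffold proteins. Many synthetase genes are known targets of ATF4, the transcription factor of the amino acid response, which binds together with C/EBP factors at a composite promoter element. The 10 cytosolic synthetases described here were taken by name: Iars, Yars, Mars, Tars, Gars, Nars, Aars, Sars, Lars and Eprs. All 10 were present among the 4878 genes of the deposited table.

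The table comes from ribosome profiling of mouse embryonic fibroblasts, primary connective tissue cells, at passages 5-8, in which RNase I digests exposed RNA and the fragments shielded by ribosomes (footprints) are sequenced. Both groups were transfected by lipid carrier, the controls with a negative control siRNA and the others with an siRNA against eIF1A (labelled X+18), an initiation factor of the small ribosomal subunit that acts while it scans for a start codon. There were 4 libraries, 2 per group, and the labels do not state whether the cultures were separate, so the p-values reflect the spread between these libraries alone, which may be technical. The table gives footprints in the leader (5' UTR, the untranslated stretch before the start codon) apart from those in the coding sequence. Matched RNA-seq was not used here, so mRNA amount and translation both enter each level, and fewer cells of a type and less RNA per cell cannot be told apart.

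Reads over the listed genes numbered 617663 and 547916 for the controls (replicates 1 and 2) and 458191 and 280649 for the knockdown libraries. Knockdown replicate 2 was the shallowest, and 32.4% of its reads lay in leaders, against 19.95% in knockdown replicate 1 and 11.6% and 13.7% in the controls. The mouse genes for eIF1A, Eif1ax and Eif1a, were not analysed here, which leaves the knockdown itself unchecked. Of 12 fibroblast markers 3 were listed (Vim, S100a4 and Fn1), with summed coding levels of 3853 and 5504 normalized reads in the controls and 3454 and 2871 in the knockdown libraries, most of them from Fn1 (3032, 4881, 2209 and 2399). S100a4 fell by 2.92 on the log2 scale (limma adjusted p = 2.4e-05), while Vim (0.38) and Fn1 (-0.74) did not pass. No endothelial, leukocyte or skeletal muscle marker was among the listed genes, while 1 of 5 epithelial markers (Dsp, 71.8 to 146 normalized coding reads) and 1 of 4 neuronal markers (Map2, 6.38 to 65.9) were, both lower in the knockdown libraries. The part of these markers in the results was not tested.

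Promoter letters bear on these genes because they are known for a shared element. RefSeq windows of 250 bases before to 50 bases after the start were at hand for 8 of the 10 genes, and were searched on both strands for TGATGNAA (N is any base; reverse strand TTNCATCA), the core of the composite element of C/EBP and ATF factors, with no other motif searched. Of these 8 windows 5 held it. The match nearest the start of each gene is shown with 11 bases on either side, 5' to 3' on the strand that carries the motif, with the motif in capitals.
Iars, chr13:49682126-49682155, minus strand: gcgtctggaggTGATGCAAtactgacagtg
Yars, chr4:129189895-129189924, plus strand: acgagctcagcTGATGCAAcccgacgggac
Tars, chr15:11399655-11399684, plus strand: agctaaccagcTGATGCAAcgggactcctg
Gars, chr6:55037960-55037989, minus strand: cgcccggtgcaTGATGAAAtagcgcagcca
Aars, chr8:111033840-111033869, minus strand: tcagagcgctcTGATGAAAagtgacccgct

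The matches shown lay close to the start that RefSeq's window uses. Counted from that start, with 1 as its first base, the motif covered bases 8 to 15 in Iars, 4 to 11 in Yars, -15 to -8 in Tars, -30 to -23 in Gars and 10 to 17 in Aars. The windows of Mars, Sars and Eprs held no match, and Nars and Lars were without a window. Among genes of the deposited table with a window, 109 of 4003 (2.72%) held the motif, and among all 27025 genes with a window 1219 (4.51%). It was found in 5 of 20 windows of amino acid response genes that are no synthetases, in 0 of 4 windows of other cytosolic synthetases and in 0 of 4 windows of mitochondrial synthetases. A match is a description of the letters and not a measured binding site.

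By RefSeq (GRCm38.p6, the assembly of mm10) Iars lies on chromosome 13 (49682130 to 49734267), Yars on chromosome 4 (129189734 to 129219240), Mars on chromosome 10 (127296221 to 127311786) and Tars on chromosome 15 (11383663 to 11399658). Gars lies on chromosome 6 (55038001 to 55079504), Aars on chromosome 8 (111027778 to 111055569), Sars on chromosome 3 (108424864 to 108445259) and Eprs on chromosome 1 (185361417 to 185428360). Nars and Lars both lie on chromosome 18 (64499655 to 64516515 and 42202298 to 42262237). The annotated end of Mars overlaps Ddit3, and Aars overlaps the RNA helicase gene Ddx19b. Iars and Sars contain snoRNA genes, and Lars contains the pseudogene Rps19-ps4. The sources used here do not say whether counting used strand, so reads in such overlaps may be shared.

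Coding footprints of the synthetases were higher after eIF1A siRNA, with Eprs as the exception. By limma on log2 values (threshold 0.05 after Benjamini-Hochberg adjustment over 4619 genes), 9 of the 10 rose, none fell and 1 did not pass. Over all genes tested 10.6% were called higher and 18.7% lower. The 10 were chosen with earlier results of these data known, so the count of 9 is no independent support for a rise of synthetases. The log2 changes of the 10 ran from 0.20 to 1.88 with a median of 1.23, against a median of -0.16 over all genes tested. In the same 9 genes both knockdown libraries lay above both controls, as they did in 26% of all genes tested. Under TMM scaling the median of all genes was 0.00 and the balance of all calls moved from 488 higher and 864 lower to 786 and 780, while 9 of the 10 synthetases were again called higher, with a median of 1.39.

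**Figure D1:**
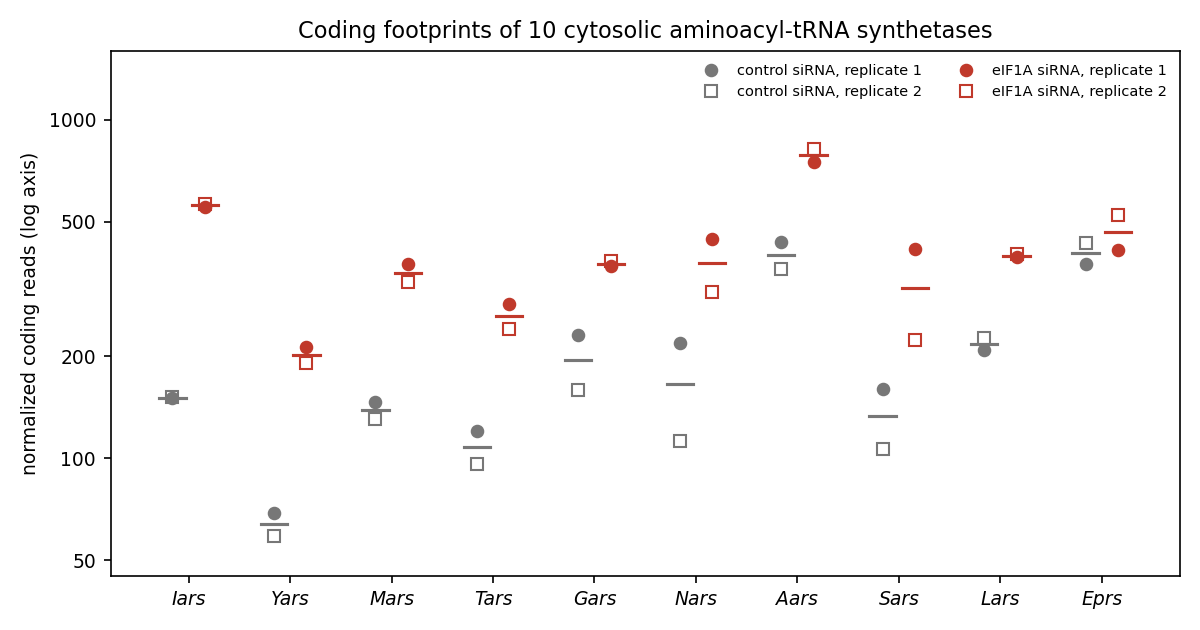
Normalized coding reads (log axis) of the 10 synthetases in each library, with grey for control siRNA, red for eIF1A siRNA, filled circles for replicate 1, open squares for replicate 2 and lines for the mean of 2 libraries. The knockdown libraries sit above both controls in 9 genes, and for Eprs, at 412 and 522 against 376 and 431, the groups overlap.

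Among the members, class I enzymes, which share the Rossmann-fold catalytic domain, included the largest changes. Iars, isoleucyl-tRNA synthetase of the multi-synthetase complex, had 151 and 151 normalized coding reads in the controls and 553 and 563 in the knockdown libraries. The libraries of each group differed little beside the gap between groups, and Iars rose 3.67-fold on the log2(value + 1) scale (log2 1.88 ± 0.28, SE, limma adjusted p = 0.000257). Yars, tyrosyl-tRNA synthetase, a free enzyme of which fragments are known to act as cytokines, had 68.8 and 58.8 in the controls and 214 and 192 in the knockdown libraries. Its groups did not overlap either, and it rose by 1.65 ± 0.29 on the log2 scale (limma adjusted p = 0.000824).

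Mars, methionyl-tRNA synthetase, charges both the elongator and the initiator tRNA, the tRNA that pairs with the start codon. It had 147 and 131 normalized coding reads in the controls and 374 and 332 in the knockdown libraries, a rise of 1.34 ± 0.28 (log2, SE, limma adjusted p = 0.00262). Lars, leucyl-tRNA synthetase, is known as a leucine sensor for mTORC1. Its coding level was 209 and 227 in the controls and 393 and 401 in the knockdown libraries, the smallest rise among the 9 called (log2 0.86 ± 0.28, limma adjusted p = 0.0291). Lars lost its call when any 1 of the 4 libraries was left out, although its log2 change over all alternatives stayed between 0.80 and 1.18.

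The 5 class II enzymes among the members, built on a different catalytic fold, all rose, by 0.96 to 1.28 on the log2 scale. Over all genes tested 10.6% were called higher. Tars, threonyl-tRNA synthetase, had 120.4 and 95.9 normalized coding reads in the controls and 285 and 241 in the knockdown libraries (log2 1.28 ± 0.29, limma adjusted p = 0.0043). Gars, glycyl-tRNA synthetase, serves both the cytosol and mitochondria. It had 231 and 159 in the controls and 369 and 381 in the knockdown libraries (log2 0.96 ± 0.29, limma adjusted p = 0.0218). Both genes showed knockdown libraries above both controls, and for Gars the controls were the more variable pair.

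Aars, alanyl-tRNA synthetase, also clears tRNA mischarged with serine. Its coding level was 435 and 363 in the controls and 752 and 819 in the knockdown libraries (log2 0.98 ± 0.29, limma adjusted p = 0.0179), a call that was lost without control replicate 2 and without knockdown replicate 2. Nars, asparaginyl-tRNA synthetase, had 219 and 112 in the controls and 443 and 310 in the knockdown libraries (log2 1.23 ± 0.34, limma adjusted p = 0.0127). Sars, seryl-tRNA synthetase, which also charges the tRNA used for selenocysteine, had 160 and 106 in the controls and 415 and 223 in the knockdown libraries (log2 1.22 ± 0.34, limma adjusted p = 0.0133). Nars and Sars had the widest spread within groups. Their groups did not overlap, though Nars lost its call without control replicate 2, where its change was 0.75. Sars lost its call without knockdown replicate 1 (0.77), without control replicate 1 (1.51) and without control replicate 2 (0.93).

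Eprs, the bifunctional glutamyl-prolyl-tRNA synthetase of the complex, joins a class I and a class II catalytic unit in 1 chain. It had 376 and 431 normalized coding reads in the controls and 412 and 522 in the knockdown libraries. The groups overlapped and the change of 0.20 ± 0.29 (log2, SE) did not pass (limma adjusted p = 0.628), with a 95% interval of -0.41 to 0.81. This interval overlaps those of the other members apart from Iars and Yars, and the difference between Eprs and the other members was not tested.

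The 4 enzymes of the complex among the members (Iars, Mars, Lars and Eprs) had a median log2 change of 1.10, with 3 called, and the 6 outside it had a median of 1.23, with 6 called. The 5 genes with the motif in their window had a median of 1.28 (0.96 to 1.88) with 5 called, and Mars, Sars and Eprs, whose windows lacked it, had 1.34, 1.22 and 0.20. These medians and counts are descriptions, and no difference between the subsets was tested. By limma, 10.6% of all genes tested were called higher. Since the members were chosen with earlier results of these data known, the counts are no support for a rise in any subset.

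Calls were lost when a library was left out, most of all without control replicate 2. Without control replicate 2, limma called no synthetase and almost no gene of the whole table. All 10 log2 changes stayed above 0, with a median of 0.92. Without control replicate 1, knockdown replicate 1 or knockdown replicate 2, most but not all of the calls were kept. The medians were then 1.43, 1.01 and 1.41. The count tests on whole reads recovered from the table called the same number as limma, 9 of 10 with edgeR and 9 of 10 with DESeq2. Over all genes edgeR called 19.5% higher and DESeq2 called 490 of 4619 higher.

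Seen as a share of the library, the 10 synthetases together took 0.541% (95% exact binomial interval 0.522 to 0.561) and 0.449% (0.430 to 0.469) of the coding reads of the listed genes in the controls. They took 1.13% (1.09 to 1.16) and 1.32% (1.27 to 1.37) in the knockdown libraries. The gap between groups was wider than that within groups, and these intervals cover counting error only. Since the 10 were chosen with earlier results of these data known, the gap is no separate support.

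**Figure D2:**
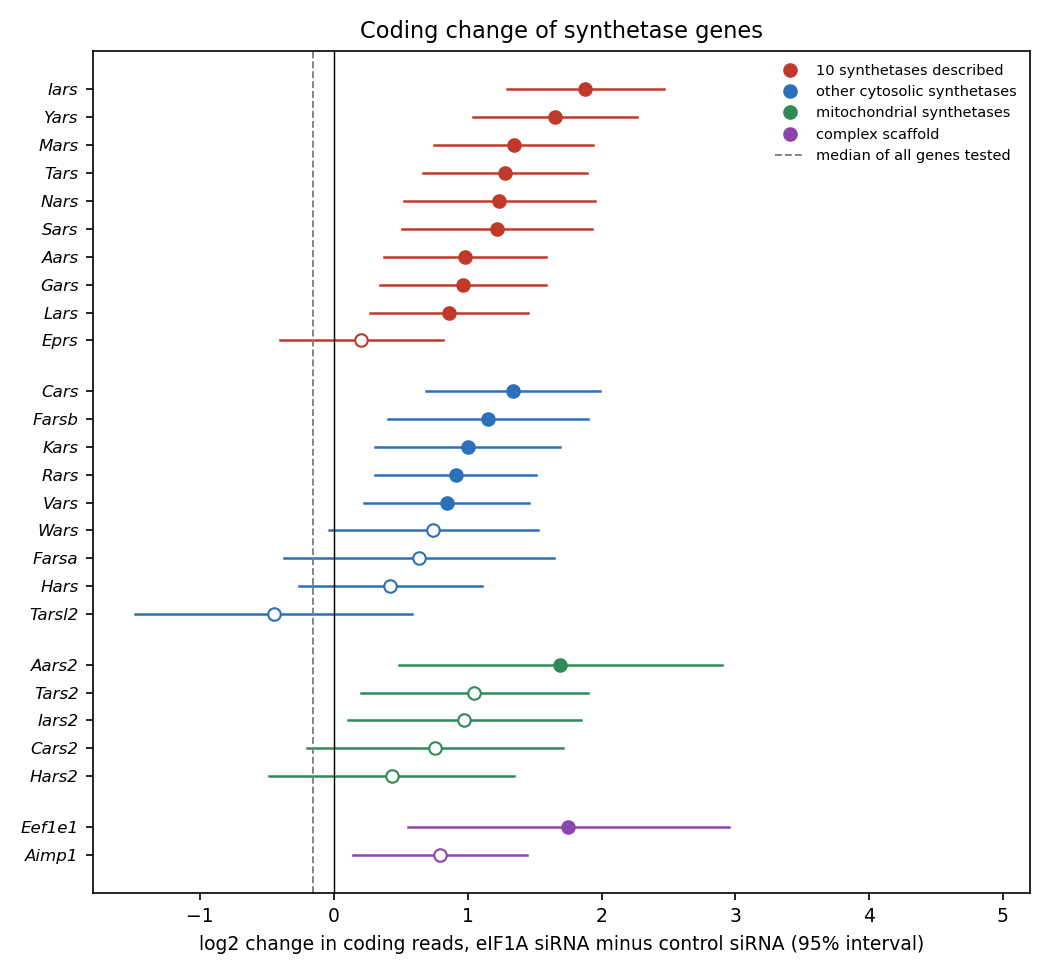
Log2 change in coding reads (eIF1A siRNA minus control siRNA) with its 95% interval from limma for the synthetase genes and complex scaffold genes tested, with filled dots for genes past the threshold and a dashed line at the median of all genes (-0.16). Of the 10 synthetases described, 9 are filled, against 5 of 9 other cytosolic, 1 of 5 mitochondrial and 1 of 2 scaffold genes. Over all genes tested 10.6% were called higher.

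Among the other cytosolic synthetases, 5 of the 9 tested rose and 4 did not pass, where 10.6% of all genes were called higher. Their median was 0.84, and the median was above 0 under every alternative tried. Cars (cysteine, log2 1.34, limma adjusted p = 0.00482), Farsb (a phenylalanine subunit, 1.15, limma adjusted p = 0.0226), Rars (arginine, 0.91, limma adjusted p = 0.0254), Kars (lysine, 1.00, limma adjusted p = 0.0305) and Vars (valine, 0.84, limma adjusted p = 0.0395) rose. Tarsl2, a threonyl-tRNA synthetase-like gene, stood at -0.45 (log2, limma adjusted p = 0.513). All of these limma calls were lost without control replicate 2, and most of them without control replicate 1 or knockdown replicate 1. Without knockdown replicate 1 a gene of this list was also called lower.

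Of 5 mitochondrial synthetases, 1 rose and 4 did not pass, with a median of 0.97, where 10.6% of all genes were called higher. Aars2, the mitochondrial alanyl enzyme, had 4.30 and 6.91 normalized coding reads in the controls and 27.5 and 14.4 in the knockdown libraries (log2 1.69 ± 0.57, limma adjusted p = 0.0355), and lost its call in 4 of 13 alternatives. It reached the filter mean of 10 only through the knockdown libraries, so the count of 1 is no support for a rise of the list. The edgeR test, under the same filter, called 3 of the 5, where it called 19.5% of all genes higher. Tars2 (1.05) and Iars2 (0.97) had smaller changes and did not pass (limma adjusted p = 0.0583 and 0.0855). Low levels went with wide intervals here, since no mitochondrial synthetase reached a mean of 50. Of the complex scaffold, Eef1e1 rose (log2 1.75 ± 0.57, limma adjusted p = 0.0292) and Aimp1 had 0.79 (limma adjusted p = 0.0632). Eef1e1, with a control mean of 7.10, also passed the filter only through the knockdown libraries, and its call was lost in 3 of 13 alternatives. The edgeR test called both under the same filter, where it called 19.5% of all genes higher, so this too is no support for a rise of the scaffold.

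Other steps of tRNA biology were counted beside the charging enzymes. Before charging, 7 of 19 tested genes of tRNA processing and modification rose, none fell and 12 did not pass (median 0.66), where 10.6% of all genes were called higher. Of the 7, Yrdc, Pop1 and Pus7 had control means of 4.09, 8.05 and 8.34 and passed the filter at 10 only through the knockdown libraries, which leaves 4 whose controls reached it, and the count of 7 is no support for a rise of the list. Yrdc, which makes the threonylcarbamoyl group of tRNA, rose by 2.73 on the log2 scale (limma adjusted p = 0.00349). Pop1 and Rpp30, subunits of RNase P, which trims the tRNA 5' end, rose by 2.25 (limma adjusted p = 0.00179) and 1.34 (limma adjusted p = 0.0146). Trmt6, a subunit of the m1A methyltransferase, rose by 1.53 (limma adjusted p = 0.00677), Pus7, a pseudouridine synthase, by 1.66 (limma adjusted p = 0.0127) and Elac2, which trims the 3' end, by 1.38 (limma adjusted p = 0.0159). Of the 7 limma calls, only that of Yrdc was kept without control replicate 1, and none was kept without control replicate 2. The edgeR test called 11 higher and 1 lower, where it called 19.5% of all genes higher and 17.6% lower.

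RNA polymerase III, which transcribes tRNA genes, and its factors gave no rise and 3 falls among 11 tested genes, while 8 did not pass. With 18.7% of all genes called lower, this count is not read as a result about these genes. The list median was -0.06 with the deposited scaling and 0.10 with TMM factors, close to the median of all genes in both. Brf1 and Bdp1, subunits of the initiation factor TFIIIB, fell by 1.39 (limma adjusted p = 0.0252) and by 1.37 (limma adjusted p = 0.0249), and Gtf3c3, of TFIIIC, fell by 1.11 (limma adjusted p = 0.035). The edgeR test called 3 lower and 0 higher, where it called 17.6% of all genes lower, and DESeq2 called 0. The limma calls were all lost without control replicate 1 and also without control replicate 2.

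After charging, the 3 tested elongation factors that take up charged tRNA or act beside them (Eef1a1, Eef1b2 and Eef2) all rose, with a median of 1.79. Over all genes tested, for this list and the next, 10.6% were called higher. The knockdown libraries of Eef1a1 differed widely, at 4667 and 1973 normalized coding reads against 941 and 742 in the controls. Without control replicate 2 none of the 3 kept its limma call. Of 23 amino acid response genes that are no synthetases, 15 rose, none fell and 8 did not pass, with a median of 1.93. This list was drawn up with earlier results of these data known. Of the 15, 5 (Atf4, Cth, Nupr1, Slc7a3 and Trib3) passed the filter at 10 only through the knockdown libraries, so the count is no support for a rise of the list. Some of these limma calls were lost without control replicate 1, and all of them without control replicate 2. Slc38a2 (-0.37), Ddit4 (0.01), Slc1a4 (0.09) and Slc1a5 (0.30), which are known members of the same response, were among the 8.

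The 5 genes outside these lists whose coding pattern over the 4 libraries was nearest to the median pattern of the 10 synthetases were Cct6a, Adrm1, Ddx39, Ddx18 and Ola1, out of 1816 candidates whose mean reached 50. The measure was the Euclidean distance of centred log2 values, which was 0.114 for Cct6a, a chaperonin subunit, and 0.169 for Ola1, an ATPase. Among the synthetases themselves it ran from 0.0631 (Tars) to 1.18 (Eprs). With 4 libraries in 2 groups, such a pattern is set mostly by the size of the group difference.

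Leader footprints were higher too, in a table where most leaders gained reads. Of the 10 synthetases, 6 had a mean of at least 10 normalized 5' UTR reads and were tested. All 6 were called higher by limma, where 44% of the 2101 genes tested were called higher and 2.81% lower. Their median log2 change was 2.35, against 1.09 over all genes. Apart from Aars, the genes reached that mean only through the knockdown libraries, so the count over them is no support for a rise. With TMM factors from the leader reads, which moved the median of all genes to 0.03 and the calls from 924 higher and 59 lower to 440 and 444, limma called 4 of the 6 (median 1.28), and Nars and Lars lost their calls. Each limma p and SE for a leader used the variance trend over all genes tested. They do not measure that gene's own spread between libraries.

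**Figure D3:**
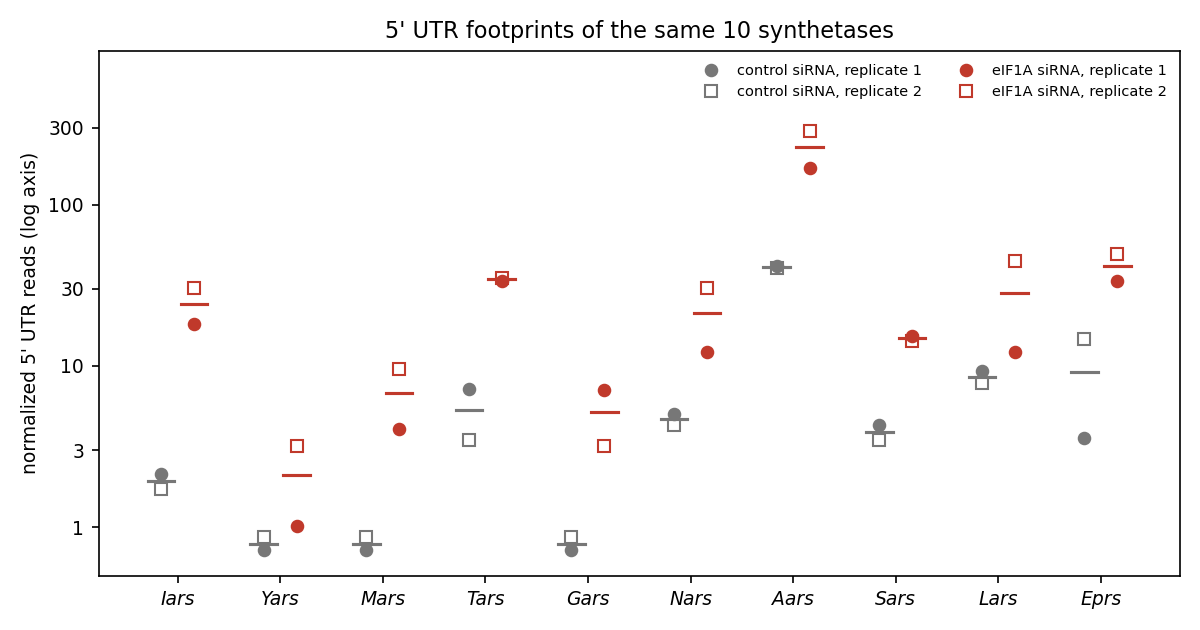
Normalized 5' UTR reads (log axis) of the 10 synthetases in each library, marked as in the plot of coding reads by library. Aars rises from 41.6 and 40.6 to 170 and 287, and Yars, Mars and Gars lie at the table's lowest value, 1 read, in both controls.

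Aars had the best-covered leader. It held 58 and 47 reads in the controls and 167 and 180 in the knockdown libraries, or 41.6 and 40.6 against 170 and 287 normalized reads. The controls were nearly equal and both knockdown libraries were far above them, and Aars rose by 2.40 ± 0.45 on the log2 scale (limma adjusted p = 3.41e-06). Aars kept its call under all 15 alternatives, with log2 changes from 1.27 to 2.78, the low ones under scalings that remove the general rise of leaders.

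Eprs had 5 and 17 leader reads in the controls and 33 and 31 in the knockdown libraries, or 3.58 and 14.7 against 33.6 and 49.5 normalized reads. Its controls differed more, as a ratio, than those of any other member, yet both knockdown libraries lay above them, as in 67.4% of the leaders tested (log2 2.30 ± 0.55, limma adjusted p = 0.00022). Without control replicate 1 its change was 1.41 (limma adjusted p = 0.259), and with DESeq2 1.09 (DESeq2 adjusted p = 0.258). Tars had 10 and 4 leader reads in the controls and 33 and 22 in the knockdown libraries, or 7.17 and 3.46 against 33.6 and 35.1 normalized reads (log2 2.55 ± 0.58, limma adjusted p = 0.000106). The call of Tars was lost without control replicate 2 (2.11, limma adjusted p = 0.0563) and with DESeq2 (1.52, DESeq2 adjusted p = 0.139).

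Iars had 3 and 2 leader reads in the controls and 18 and 19 in the knockdown libraries, or 2.15 and 1.73 against 18.3 and 30.3 normalized reads (log2 3.07 ± 0.71, limma adjusted p = 0.000139). Iars kept its call under all 13 alternatives that gave it an adjusted p, which leaves out the filter at a mean of 50 and DESeq2. The pooled reads were 11.7 times higher in the knockdown libraries per unit of depth (exact 95% counting interval 4.60 to 38.3). With 1 read taken off every value the ratio was 18.5 (5.83 to 94.0). Both intervals cover counting error only and not the spread between libraries. Leaders rose over all genes tested as well, with a median log2 change of 1.09. Nars had 7 and 5 leader reads against 12 and 19 (log2 1.85 ± 0.64, limma adjusted p = 0.0122). Lars had 13 and 9 against 12 and 28, so that the rise came mainly from knockdown replicate 2 (log2 1.37 ± 0.57, limma adjusted p = 0.0373). Without that library the change of Lars was 0.47 (limma adjusted p = 0.545) and that of Nars 1.22 (limma adjusted p = 0.13). Over all alternatives with a value, Nars lost its call in 6 of 13 and Lars in 9 of 14.

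The other 4 had too few leader reads to pass the filter and were tested only with no filter. In that setting 7 of the 10 were called higher, where 1247 of 4878 genes were. Sars had 6 and 4 in the controls and 15 and 9 in the knockdown libraries, Gars 1 and 1 against 7 and 2, Mars 1 and 1 against 4 and 6, and Yars 1 and 1 against 1 and 2. Since 1 read is the lowest value in the table and may stand for none, the last 3 have no level in the controls that could be told from 0.

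The ratio of leader to coding footprints, in which the scaling of a library cancels, rose in 1 of the 6 tested synthetases, where 19.4% of 1907 genes were called higher and 0.0524% lower. Eprs was that 1, with a log2 change of 2.10 ± 0.70 (limma adjusted p = 0.0249). Its leader averaged 9.14 normalized reads in the controls, so it passed the filter at 10 only through the knockdown libraries (limma adjusted p = 0.0233 with no filter). The leaders of Eprs held 0.943% and 3.29% of its reads in the controls and 7.53% and 8.66% in the knockdown libraries. Its groups did not overlap, as in 64% of all genes tested, which had both knockdown libraries above both controls. The call was lost without control replicate 1 (log2 1.31, limma adjusted p = 0.794), without control replicate 2 (2.89, limma adjusted p = 0.49), and under quantile normalization (1.32, limma adjusted p = 0.228).

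For the other 5 the ratio did not pass. The changes were 1.42 for Aars, 1.27 for Tars, 1.19 for Iars, 0.61 for Nars and 0.51 for Lars. The median over the 6 was 1.23, as over all genes tested (1.23). In Aars the leader held 8.72% and 10.1% of the reads in the controls and 18.4% and 26.0% in the knockdown libraries, with exact 95% intervals of 6.69 to 11.1, 7.49 to 13.2, 16.0 to 21.1 and 22.7 to 29.4. Both knockdown shares of Aars were above both control shares by more than counting error. The change in the ratio did not pass (limma adjusted p = 0.157). This p used the variance trend over all genes tested and does not measure the spread between the libraries of Aars.

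**Figure D4:**
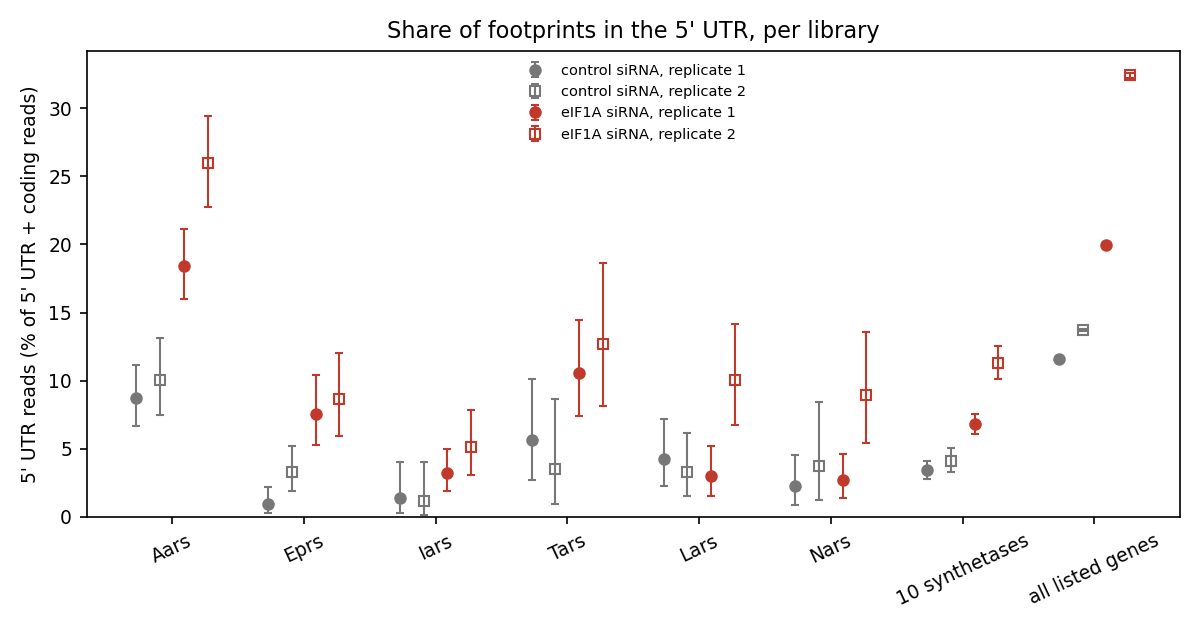
Share of footprints in the 5' UTR (percent of 5' UTR plus coding reads) in each library for the 6 synthetases tested, for the 10 together and for all listed genes, with 95% exact binomial intervals that cover counting error only. The 10 synthetases together lie at 3.43% and 4.11% in the controls and 6.80% and 11.3% in the knockdown libraries, below the table as a whole at 11.6%, 13.7%, 19.95% and 32.4%.

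Over the 10 synthetases together, leaders held 3.43% and 4.11% of the reads in the controls and 6.80% and 11.3% in the knockdown libraries. In each library this was below the share over all listed genes. Both sets were highest in knockdown replicate 2. In Nars and Lars the share in knockdown replicate 1 (2.68% and 3.02%) lay within or below the control values (2.24% and 3.70%, and 4.26% and 3.31%), and only knockdown replicate 2 was higher (8.92% and 10.04%).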

How the data were processed

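Reads were processed by the authors with DESeq2, HTSeq, TopHat2, Bowtie and cutadapt on mm10, per the submitters' processing notes, which give neither versions nor order. The values deposited by the authors are a signal, normalized read numbers for each gene's leader and coding sequence. In each library 100% of values were whole multiples of 1 read (within 0.001), worth 0.717, 0.864, 1.02 and 1.60 in control replicates 1 and 2 and knockdown replicates 1 and 2. Whole reads were recovered from them. Replicates differed by more than sampling noise (chi-square per degree of freedom 4.26 and 3.41). Symbols were matched to RefSeq for 4872 of 4878 genes. Any promoter match farther from the start than the one shown for its gene is not reported here.

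Log2(value + 1) was tested with limma 3.58.1 (R 4.3.3, trended empirical Bayes, Benjamini-Hochberg, threshold 0.05) on all genes with a mean of at least 10, without a replicate block. For leaders and ratios the prior gave every gene the trend's variance. On recovered counts, edgeR 4.0.16 called 1712 genes for coding reads and DESeq2 1.42.0 called 988, against 1352 by limma. An exact permutation test of 2 against 2 libraries cannot go below p = 0.333, so none was run.

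All 10 members were named, and of other lists at most 6 members with the smallest adjusted p, besides genes given as values that were chosen after their values were seen (Tarsl2, Tars2, Iars2, Aimp1, Slc38a2, Ddit4, Slc1a4, Slc1a5, Atf4, Cth, Nupr1, Slc7a3, Trib3 and the fibroblast markers). Members and lists were chosen with earlier results of these data known. Settings tried were pseudocount, filter, scaling, test, 1 read taken off every value, replicate block and each library left out. TMM factors from the coding reads were added for leaders after seeing the data.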

Additional observations from a re-analysis of the deposited data

How the results depend on the processing

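Of the 10 synthetases, 9 were called higher in coding reads under all 10 alternatives that kept the 4 libraries, and 0 to 7 with 1 library left out. No coding log2 change turned its sign. For leaders, 6 were called in the main analysis, 1 with a filter at a mean of 50 (which left 1 tested), 1 with DESeq2 and 3 to 6 with 1 library left out. For the ratio, 1 was called, against 0 with a filter at 50, 0 with quantile normalization and 0 to 4 with 1 library left out. At an unadjusted p under 0.05 limma gave 1 member with that filter, where 137 of 286 genes passed. With quantile normalization it gave 0, where 432 of 1907 genes passed. TMM factors were not run for the ratio. A factor shared by both regions of a library would cancel there apart from the pseudocount, while separate factors for leaders and coding reads would not. Over all genes, coding calls numbered 1352, against 11 to 1729 with 1 library left out and 788 with a filter at 50. Leader calls numbered 983, against 365 with DESeq2 and 232 with a filter at 50, and ratio calls 371, against 1 with quantile normalization. Leader and ratio calls over all genes also varied widely with 1 library left out, and the counts of synthetases called rose and fell with them. Those counts of leaders and ratios are therefore no result about the synthetases. With 1 library left out, the median log2 change over all genes ran from 0.76 to 1.42 for leaders and from 0.76 to 1.76 for the ratio. The labels do not say that equal replicate numbers pair libraries, and deviations of same-numbered libraries correlated at 0.26 for coding reads, -0.06 for leaders and 0.12 for the ratio across genes. With a replicate block, 9, 6 and 1 synthetases were called in coding reads, leaders and the ratio, the same counts as without it. Over all genes the block called 1921, 1258 and 851. Depth limits the leaders, where Yars, Mars and Gars had 1 read in each control.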
